A study of Mus musculus with 12 samples.

Results

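The histone genes counted in these oligo(dT)-primed mouse embryo libraries were taken by gene symbol, together with Cenpa and Slbp, and had to reach 10 or more counts in 3 or more libraries. Of 55291 genes in the table, 85 had a matching name and 50 met the minimum. A further 6 names ending in -ps were left out as pseudogenes. The 50 genes comprised 29 of 61 replication-type core histone genes, all 5 replication-type linker genes (H1f1 to H1f5), 3 of 4 replacement linker genes (H1f0, H1f8 and H1f10), 9 of 10 replacement variants, 2 of 3 cluster genes known from testis and oocyte (H2ac1 and H2bc1), Slbp, and H3f3aos, an RNA antisense to H3f3a. The replacement variants were H3f3a, H3f3b, H3f3c, H3f4, H2az1, H2az2, H2ax, H2aj and Cenpa. Among the core genes that met the minimum were 4 H2A, 9 H2B, 7 H3 and 9 H4 genes.

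Most mRNAs end in a poly(A) tail, but replication-type histone mRNAs, which are made in S phase to package new DNA, usually end just after a short RNA hairpin. Slbp binds that hairpin and is needed for the processing, translation and decay of these mRNAs. Replacement histones such as H3.3, H2A.Z and the centromeric protein CENP-A come from ordinary polyadenylated mRNAs, and eggs and early embryos carry them as maternal stores together with the oocyte linker histone H1f8. PAN2 is the catalytic subunit of a deadenylase that shortens poly(A) tails. An oligo(dT) primer needs a run of A residues, so the levels below count primed RNA only, not all histone mRNA.

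Embryos with a maternal deletion of Pan2 (labelled KO) and wild-type embryos (WT) were collected at 2 stages labelled PN3 and L2C, which the series' design text calls zygotes and 2-cell embryos. Each of the 4 groups had 3 Smart-seq2 libraries of poly(A) RNA. The sources used here do not give the promoter that drives the deletion, the strain or the number of embryos per library. All 4 groups are whole embryos, and in such bulk samples fewer cells of a type and less RNA per cell cannot be told apart. Nothing in the labels says that the 3 libraries of a group came from separate matings, so p-values measure the spread between these libraries, which may be technical.

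Levels are given as CPM, the counts scaled to a common library size. Libraries held 14453592 to 28624766 counts, and 3 counts corresponded to 0.109 to 0.171 CPM. Pan2 itself stood at 189, 173 and 160 CPM in the WT PN3 libraries and at 1.58, 6.67 and 4.52 CPM in the KO PN3 libraries. At L2C it was 62.2, 60.1 and 69.1 CPM in WT and 15.3, 17.8 and 34.5 CPM in KO. All 10 oocyte markers were detected, and 8 of 8 markers of the 2-cell embryo were higher at L2C than at PN3 in WT. Of 10 granulosa and cumulus markers, 6 met the count minimum, 4 stayed under 1 CPM, and the 10 summed to 12.2 to 42.8 CPM. The highest of them, Cyp19a1, reached 42.6 CPM in a library. Of 7 sperm markers 5 met the minimum, the highest being Prm2 at 13.9 CPM. Of 8 oviduct, stroma and blood markers 6 did, the highest being Epcam at 163.5 CPM. A ribosomal RNA feature took 34.9% and 32.2% of counts in replicate 2 of the WT and KO PN3 groups, against 4.35% to 5.63% in the other PN3 libraries. It took 24.0% and 34.0% in replicate 3 of the WT and KO L2C groups, against 12.7% to 13.9% in the other L2C libraries. These 4 libraries are called rRNA-rich below. At L2C, replicates 1 and 2 were a close pair in both genotypes, with a chi-square per degree of freedom of 3.24 in WT and 3.54 in KO against 18.4 to 796 for the other pairs within groups. They still differed by more than sampling noise and were kept as separate samples.

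The hairpin that defines replication-type histone mRNA was searched in the annotated transcripts of GENCODE M21 (mm10). It was found in 26 of the 34 replication-type members, in 19 of 32 replication-type core genes under the count minimum, and in 52 of 21938 protein-coding genes, or 0.237%. A transcript model that ends before the hairpin gives no match. The windows of 5 members of different histone types, all on chromosome 13, are shown with that of H2ax, the 1 of 16 other members with a match. Each has 26 bases, written as RNA-sense DNA, and the capitals mark the 16 bases of stem, loop and stem.
H3c7: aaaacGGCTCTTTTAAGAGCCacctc
H4c3: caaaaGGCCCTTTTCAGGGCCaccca
H2bc12: ccaaaGGCTCTTTTAAGAGCCactaa
H2ac6: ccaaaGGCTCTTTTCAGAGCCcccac
H1f2: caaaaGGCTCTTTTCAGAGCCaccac
H2ax: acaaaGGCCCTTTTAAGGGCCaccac
These lie at chr13:23544927-23544952 (plus strand), chr13:23698084-23698109 (minus), chr13:22036295-22036320 (plus), chr13:23683472-23683497 (minus), chr13:23739507-23739532 (plus) and chr9:44335235-44335260 (plus), in that order, all in mm10. All are in the 3′ untranslated region, 27 to 49 bases past the coding end. The stem read GGCCCT in all 9 H4 members and in H2ax, and GGCTCT in the 2 H2A, 7 H2B, 5 H3 and 3 linker members that had a match.

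In the annotation, many of these genes run on past the hairpin. Of the 26 replication-type members with a hairpin, 15 had a transcript reaching more than 100 bases beyond it, among them H3c7 (365 bases), H4c3 (454 bases), H4f16 (2445 bases) and H1f3 (4884 bases). The other 11 ended 100 or fewer bases beyond it, among them H2bc12 (30 bases) and H2bc11 (23 bases). The median was 249.5 bases for the members and 42 bases for the 19 genes with a hairpin under the count minimum. That minimum is not scaled for length, and longer annotated ends can collect more counts. The median length was 716.5 bases for all replication-type members and 485 bases for those under the minimum. The part of length in this difference was not tested. Among the members with a hairpin, H2bc12 had the highest level per kilobase, 42.8 CPM per kb over the 12 libraries. H4c3 followed at 20.8, H2bc11 at 13.5 and H3c7 at 10.7 CPM per kb. The lowest levels were those of H2bc6 (0.124 CPM per kb), H1f4 (0.141) and H1f3 (0.193), whose annotated ends run 1861, 1153 and 4884 bases past the hairpin. The length that divides each level includes that end. No hairpin was found in the annotated transcripts of 8 replication-type members. Among them were H1f1, the linker gene with the highest level in this class at 50.8 CPM per kb, and H2bc4 at 14.6 CPM per kb. Only annotated bases were searched, so a hairpin past an annotated end would be missed. The annotated transcripts of H3c10 and H3c11 have 411 bases each, and that of H1f1 has 741. Those of H2bc21 and H2bc4 are longer, at 2620 and 1156 bases. The search took only a perfectly paired stem with set loop bases, so a hairpin of other sequence would also be missed. These 8 genes are therefore not shown to lack a hairpin.

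**Figure D1:**
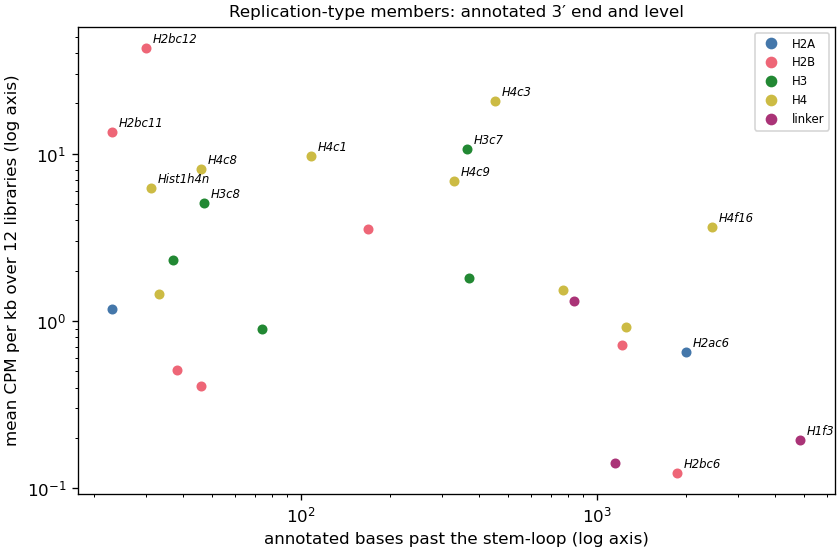
Level of the 26 replication-type members with a hairpin (mean CPM per kb over 12 libraries, log axis) against the number of annotated bases past the hairpin (log axis), coloured by histone type. H2bc12 and H2bc11 sit at the upper left with 30 and 23 bases, H4c3 and H3c7 in the upper middle with 454 and 365 bases, and H1f3 at the lower right with 4884 bases.

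H2ac1 and H2bc1, which encode the testis and oocyte histones TH2A and TH2B, are neighbours on chromosome 13 and are read in opposite directions, with 305 bases between their starts. Their 300-base promoter windows share 220 bases. Since both genes fell from PN3 to L2C in WT (below), the window of H2bc1 is shown, from RefSeq, with every match to the CCAAT box, the octamer (ATTTGCAT) or the TATAAA box on either strand in capitals, with the CCAAT box also read as ATTGG.
H2bc1: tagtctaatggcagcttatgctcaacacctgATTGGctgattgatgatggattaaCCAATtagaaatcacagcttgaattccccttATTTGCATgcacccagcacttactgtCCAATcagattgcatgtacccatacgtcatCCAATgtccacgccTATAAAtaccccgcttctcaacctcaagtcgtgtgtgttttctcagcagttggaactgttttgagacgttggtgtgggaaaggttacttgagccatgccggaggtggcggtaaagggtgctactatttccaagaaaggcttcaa
It covers chr13:23934107-23934406 on the minus strand of mm10, from 250 bases before to 50 bases after the start. It holds 4 CCAAT matches, 1 TATAAA match and 1 octamer. Among the 40 members with a promoter in the table, 33 held CCAAT, 18 TATAAA and 7 the octamer, against 37.4%, 13.6% and 1.74% of 32851 promoters. The windows of H2ac12 and H2bc12 and of H2ac11 and H2bc11 also overlap, so a site there can be counted more than once. The 7 with the octamer include H2ac1, H2bc1, H2ac12 and H2bc12. A match describes the letters in the window and does not show that a factor binds there.

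Replacement histones and Slbp carried most of the signal. The 7 members with a mean of 100 CPM or more in some group were Slbp, H1f8, H3f3a, H3f3b, H2az1, H2az2 and Cenpa. Among the 29 replication-type core members, 23 stayed under 10 CPM in every group mean, and the 6 that reached 10 CPM were H2bc4, H2bc11, H2bc12, H3c7, H4c3 and H4f16. The 29 summed to 128 ± 35.6 CPM (SD, n = 3) in WT PN3, 137 ± 24.8 in KO PN3, 97.2 ± 8.06 in WT L2C and 149 ± 12.6 in KO L2C. The lower sum at L2C than at PN3 in WT depended on the scaling: with total counts alone it was 110 CPM at both stages. The 32 core genes under the minimum added 0.784 to 7.75 CPM to the group means. The 9 replacement variants summed to 2698 ± 907 CPM in WT PN3, 2730 ± 922 in KO PN3, 4918 ± 929 in WT L2C and 2866 ± 1024 in KO L2C.

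**Figure D2:**
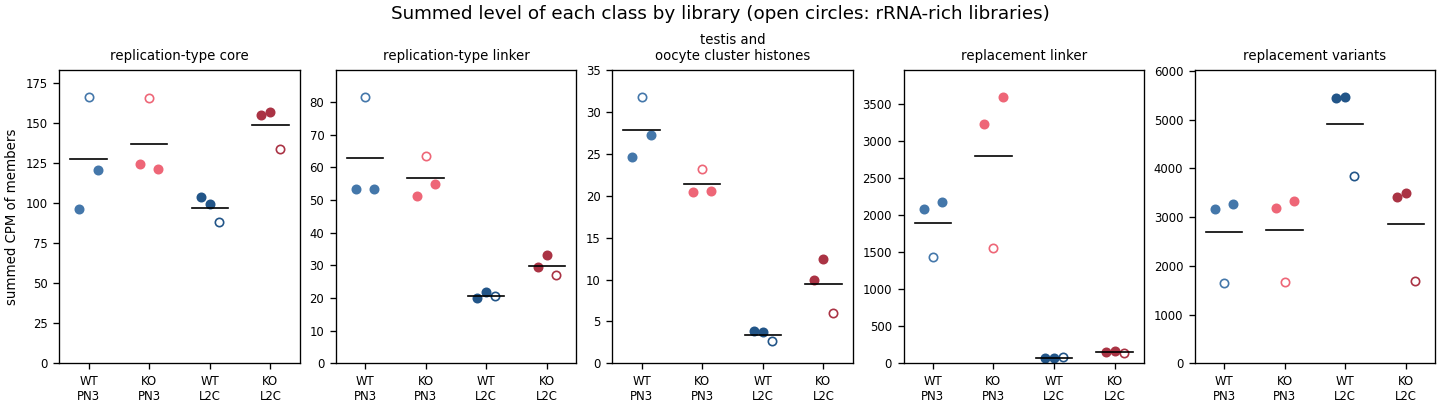
Summed level of each class in each library (CPM, axes from 0, each class with its own axis); bars are group means, and open circles are the rRNA-rich libraries. The replacement linker sum falls from 1894 CPM in WT PN3 to 72.9 CPM in WT L2C, and the sum of the replacement variants is 4918 CPM in WT L2C against 2866 CPM in KO L2C.

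The rRNA-rich libraries stood apart for the classes as well. In replicate 2 of both PN3 groups the replacement variants summed to 1653 and 1667 CPM, against 3164 to 3325 CPM in the other PN3 libraries, while the replication-type core genes summed to 167 and 166 CPM against 96.3 to 124 CPM. A list of RNAs that have no poly(A) tail summed to 119 and 110 CPM in those libraries and to 27.2 to 34.8 CPM in the other PN3 libraries. The part of tail-independent priming in the histone levels was not tested. Results that rest on these 4 libraries are therefore also given without them.

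From PN3 to L2C in WT, 23 of 49 members tested changed at an edgeR adjusted p under 0.05, 14 higher and 9 lower, against 36.2% of all 21160 genes higher and 25.4% lower. In KO, 21 of 49 changed, 14 higher and 7 lower, against 33.5% and 20.1% of all genes. Among those called higher, H1f2, H1f5, H2ac11, H3c3, H3c10, H3c11, H4c6 and H3f3aos needed their L2C libraries to meet the count minimum. Their rise is thus partly built into the choice of members and is not separate evidence. The 5 called replacement variants were the same in both genotypes and all rose, and every called replacement linker and testis and oocyte gene fell. H1f4 was a member but did not pass the filter on low counts and was not tested. The median log2 fold change was 0.37 over the 49 members and 0.38 over all genes in WT, and 0.71 and 0.41 in KO. The median over all genes depended on the scaling, reaching 0.74 in WT and 0.84 in KO with total counts alone, so small stage changes are relative to that choice. None of the called genes named below changed direction with the scaling.

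**Figure D3:**
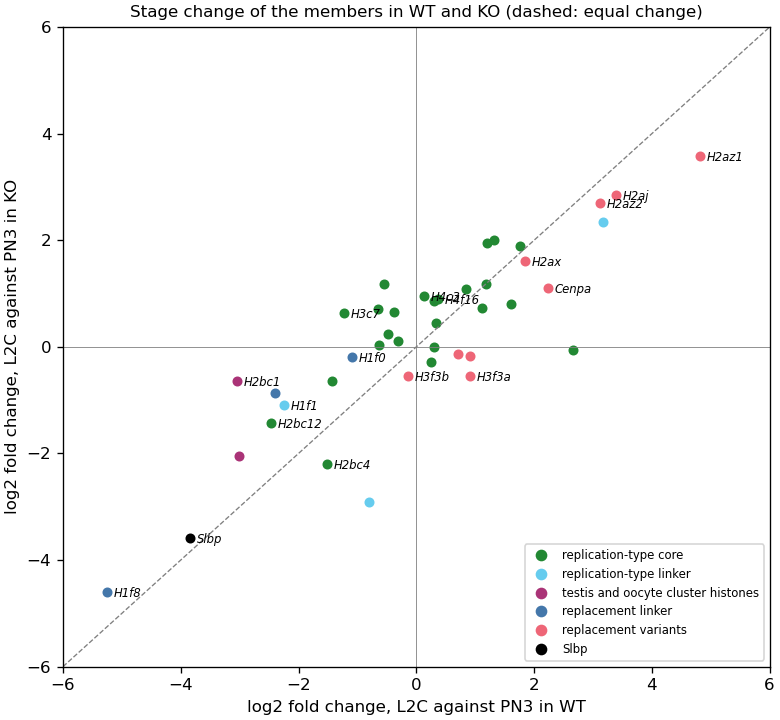
log2 fold change from PN3 to L2C in WT (horizontal) and in KO (vertical) for the tested members, without those at 3 or fewer counts in a PN3 group; the dashed line marks equal change. H1f8 and Slbp lie lowest at -5.25 and -3.84 in WT, H2az1 highest at 4.82, and H3c7 and H2bc1 lie above the line.

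Slbp, the hairpin-binding protein gene (chr5:33634952-33652574), was among the most abundant members in zygotes and fell at the 2-cell stage. In WT PN3 its level was 2723, 824 and 2272 CPM, against 1852, 546 and 2110 CPM in KO PN3, 141, 152 and 113 CPM in WT L2C, and 148, 137 and 88.4 CPM in KO L2C. The stages did not overlap in either genotype, the WT and KO libraries overlapped at both stages, and the lowest PN3 value in each genotype was the rRNA-rich library. The log2 change between stages was -3.84 ± 0.53 (SE) in WT and -3.59 ± 0.52 in KO, with edgeR adjusted p of 4.4e-05 and 9.73e-05. KO against WT gave -0.37 ± 0.47 at PN3 (edgeR adjusted p = 0.909) and -0.12 ± 0.47 at L2C (edgeR adjusted p = 0.894), and the latter value changed sign with upper quartile scaling. Without the rRNA-rich libraries the PN3 difference was -0.34 with an edgeR adjusted p of 0.0457.

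Linker histones bind the DNA between nucleosomes, and the oocyte form H1f8 (chr6:115944938-115950236) was the most abundant of them in zygotes. H1f8 stood at 2031, 1335 and 2140 CPM in WT PN3, at 3194, 1465 and 3563 CPM in KO PN3, 45.8, 48.9 and 50.5 CPM in WT L2C, and 124, 137 and 79.9 CPM in KO L2C. Every L2C library lay far below every PN3 library. The log2 change of H1f8 was -5.25 ± 0.38 (SE) in WT and -4.595 ± 0.37 in KO, with edgeR adjusted p of 2.56e-07 and 1.03e-06. Per kilobase, H1f8 made up 92.4% ± 4.5 (SD, n = 3) of the summed linker level in WT PN3 and 94.9% ± 3.7 in KO PN3. At L2C its share was 52.5% ± 1.7 in WT and 61.0% ± 9.7 in KO, while H1f1 rose from 5.28% and 3.48% of the sum to 22.4% and 22.0%. The share of H1f1 grew although its own level fell, since H1f8 fell further.

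H1f1 (chr13:23763666-23764406), a replication-type linker gene, was at 51.7, 77.3 and 52.0 CPM in WT PN3, at 48.7, 57.2 and 52.5 CPM in KO PN3, 12.0, 12.0 and 14.3 CPM in WT L2C, and 24.8, 26.0 and 23.5 CPM in KO L2C. All L2C libraries lay below all PN3 libraries, and at L2C all KO libraries lay above all WT libraries. It fell by 2.24 ± 0.23 (SE) in WT and by 1.09 ± 0.22 in KO on the log2 scale, with edgeR adjusted p of 3.1e-06 and 0.00106. The other replication-type linker genes stayed under 6 CPM in every library. Of these, H1f2 and H1f5 needed their L2C libraries to meet the count minimum, so their rise is partly built into the choice. H1f2 rose from 0.424 ± 0.28 (SD, n = 3) to 3.91 ± 0.12 CPM in WT (edgeR adjusted p = 0.00161) and from 0.643 ± 0.52 to 3.28 ± 1.3 CPM in KO (edgeR adjusted p = 0.0103). H1f5 had 0 counts in the 3 WT PN3 libraries and 183 in the WT L2C libraries, at least 69.9-fold higher with the floor set at 3 counts for the whole group (edgeR adjusted p = 0.000451). In KO it had 2 counts at PN3 and 69 at L2C, a ratio of 39.1 with an exact 95% counting interval of 10.4 to 329, which covers counting error only. H1f3 fell in KO (-2.91 ± 0.82, edgeR adjusted p = 0.00956) and stood at -0.81 ± 0.77 in WT (edgeR adjusted p = 0.375).

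The widely expressed replacement linker H1f0 was at 44.6, 68.7 and 29.3 CPM in WT PN3 and at 18.1, 18.8 and 30.3 CPM in WT L2C. The groups overlapped, and the call of a fall (-1.08 ± 0.41, edgeR adjusted p = 0.0355) was lost without WT PN3 replicate 1 or 2 or WT L2C replicate 1 or 2, with adjusted p up to 0.12. It was also lost with RLE or total count scaling, with the filter at 10 CPM, with the close L2C pairs summed and with DESeq2 (adjusted p = 0.0661 to 0.117). H1f10 reached 28.7 and 18.1 CPM in the rRNA-rich PN3 libraries and 0.762 to 2.73 CPM in the other PN3 libraries, so its PN3 means rested on those 2 libraries. At L2C it was 8.82 CPM in the rRNA-rich KO library and 0.856 to 3.20 CPM in the others.

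Of the 9 replacement variants, 5 rose in both genotypes: H2az1, H2az2, H2aj, H2ax and Cenpa. H2az1, which encodes the main H2A.Z protein found at gene starts (chr3:137864487-137866922), was at 50.3, 23.8 and 50.4 CPM in WT PN3, at 68.2, 24.3 and 65.0 CPM in KO PN3, 1290, 1299 and 921 CPM in WT L2C, and 743, 777 and 362 CPM in KO L2C. The log2 rise was 4.82 ± 0.48 (SE) in WT and 3.58 ± 0.45 in KO, with edgeR adjusted p of 2.84e-06 and 3.14e-05, and every L2C library lay above every PN3 library. H2az2, the gene of the second H2A.Z protein, rose by 3.12 ± 0.22 in WT and 2.69 ± 0.22 in KO. Per kilobase, H2az1 and H2az2 together were 41.4% ± 10 (SD, n = 3) of the summed H2A level in WT PN3 and 89.4% ± 1.3 in WT L2C, and 45.4% ± 9.1 and 87.2% ± 6.2 in KO.

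Cenpa, the centromeric H3 variant (chr5:30666777-30674830, plus strand), was at 130, 130 and 102 CPM in WT PN3, at 114, 159 and 116 CPM in KO PN3, 591, 625 and 481 CPM in WT L2C, and 305, 324 and 205 CPM in KO L2C. All L2C libraries lay above all PN3 libraries. The log2 rise was 2.23 ± 0.24 (SE) in WT and 1.099 ± 0.23 in KO, with edgeR adjusted p of 5.42e-06 and 0.00154. H2ax, whose protein is phosphorylated at DNA breaks, rose by 1.85 ± 0.30 in WT and by 1.60 ± 0.31 in KO (edgeR adjusted p = 0.000178 and 0.000737). H2aj rose from 8.18 ± 2.6 (SD, n = 3) to 86.2 ± 6.0 CPM in WT and from 6.17 ± 3.2 to 44.1 ± 21 CPM in KO.

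The H3.3 genes H3f3a and H3f3b, which encode the same protein, were not called between stages. H3f3b (chr11:116021912-116027962) was at 2347, 1219 and 2243 CPM in WT PN3, at 2191, 1213 and 2221 CPM in KO PN3, 1964, 1919 and 1397 CPM in WT L2C, and 1593, 1612 and 668 CPM in KO L2C. The stages overlapped in both genotypes, and L2C against PN3 gave -0.14 ± 0.36 (SE, edgeR adjusted p = 0.755) in WT and -0.54 ± 0.37 (edgeR adjusted p = 0.233) in KO. H3f3a (chr1:180800832-180813943) was at 587, 218 and 834 CPM in WT PN3, at 791, 216 and 884 CPM in KO PN3, 1177, 1218 and 705 CPM in WT L2C, and 553, 558 and 186 CPM in KO L2C. For H3f3a, L2C against PN3 gave 0.92 ± 0.57 in WT (edgeR adjusted p = 0.174) and -0.55 ± 0.56 in KO (edgeR adjusted p = 0.439). In each group the rRNA-rich library was below the other 2 for both genes. Without these libraries both genes were called in both genotypes, on L2C groups that then held only the close replicates 1 and 2, and with those pairs summed neither was called. H3f3a and H3f3b made up 80.7% to 96.0% of the summed H3 level per kilobase over the 12 libraries, and the 7 replication-type H3 genes 1.45% to 7.32%. H3f3c and H3f4, placed here by their symbols, have 411 annotated bases each, and how reads shared with other H3 genes were counted is not stated, so their levels of 0.337 to 6.05 CPM are uncertain. H3f3aos (chr1:180813776-180816859) was at 0 to 1.55 CPM and overlaps H3f3a only at one end. No source used here gives the strand setting of the counting, so reads within that overlap cannot be separated. H3f3aos had 2 counts in KO PN3 and 62 in KO L2C, a ratio of 35.1 with an exact 95% counting interval of 9.32 to 297. It needed its L2C libraries to meet the count minimum.

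**Figure D4:**
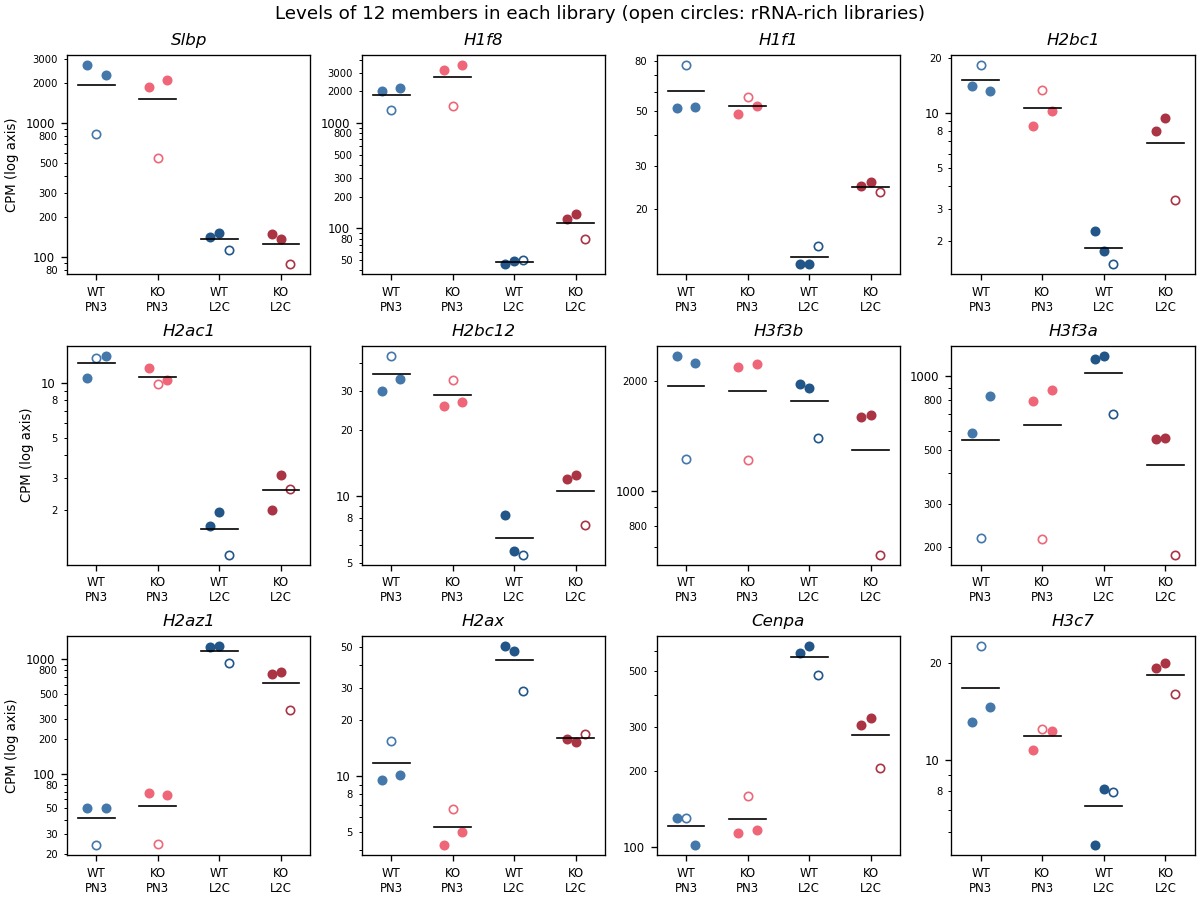
Level of 12 members in each library (CPM, log axes that differ between panels); bars are group means and open circles the rRNA-rich libraries. Slbp, H1f8, H1f1, H2ac1 and H2bc12 are lower at L2C than at PN3, and H2az1, H2ax and Cenpa are higher. H2bc1 is lower at L2C in WT, while its KO stages overlap. At L2C the KO libraries lie above WT for H1f8, H1f1, H2bc1 and H3c7 and below WT for H3f3a, H2az1, H2ax and Cenpa.

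The testis and oocyte genes H2bc1 and H2ac1 both fell between stages in WT, and in KO only H2ac1 was called. H2bc1 (chr13:23933773-23934156) was at 14.04, 18.2 and 13.2 CPM in WT PN3, at 8.48, 13.3 and 10.3 CPM in KO PN3, 2.26, 1.76 and 1.498 CPM in WT L2C, and 7.94, 9.32 and 3.36 CPM in KO L2C. H2ac1 (chr13:23934462-23934851) was at 10.6, 13.6 and 14.1 CPM in WT PN3, at 12.0, 9.87 and 10.3 CPM in KO PN3, 1.64, 1.94 and 1.14 CPM in WT L2C, and 2.00, 3.12 and 2.61 CPM in KO L2C. In WT, H2bc1 fell by 3.04 ± 0.42 (SE) and H2ac1 by 3.01 ± 0.35 on the log2 scale, with edgeR adjusted p of 4.32e-05 and 1.1e-05. In KO, H2ac1 fell by 2.06 ± 0.34 (edgeR adjusted p = 0.000253), and H2bc1 stood at -0.64 ± 0.38 (edgeR adjusted p = 0.181). Per kilobase, H2ac1 was 32.4% ± 3.4 (SD, n = 3) of the summed H2A level in WT PN3 and 0.439% ± 0.056 in WT L2C.

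The replication-type core genes went both ways. In WT, 7 of 29 rose and 3 fell, beside 36.2% and 25.4% of all genes. In KO 6 rose and 2 fell, beside 33.5% and 20.1%. Among those that rose, H2ac11, H3c3, H3c10, H3c11 and H4c6 needed their L2C libraries to meet the count minimum. Those that fell in WT were the H2B genes H2bc12 and H2bc4 and the H3 gene H3c7. H2bc12 (chr13:22035870-22036345) went from 35.8 ± 6.8 (SD, n = 3) to 6.44 ± 1.6 CPM in WT and from 28.6 ± 4.3 to 10.6 ± 2.8 CPM in KO, changes of -2.47 ± 0.30 (SE) and -1.44 ± 0.29 (edgeR adjusted p = 1.45e-05 and 0.00109). H2bc4 fell by 1.51 ± 0.28 in WT and by 2.20 ± 0.29 in KO (edgeR adjusted p = 0.000518 and 4.1e-05). Together these H2B genes were 61.3% ± 2.9 (SD, n = 3) of the summed H2B level per kilobase in WT PN3 and 48.2% ± 1.5 in WT L2C.

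Among the core genes that rose, H3c11, H3c3 and H4c6 had few counts in zygotes. They were members only because of their L2C counts, so their rise is partly built into the choice. H3c11 went from 0.0661 ± 0.074 (SD, n = 3) to 3.82 ± 1.1 CPM in WT, a change of 5.66 ± 0.91 (SE, edgeR adjusted p = 0.00016), and H3c3 from 0.082 ± 0.079 to 1.63 ± 0.29 CPM (edgeR adjusted p = 0.00546). In KO, H3c3 had 0 counts at PN3 and 30 at L2C, at least 11.3-fold higher with the same floor. H3c11 had 3 and 90 counts, a ratio of 34.0 with an exact 95% counting interval of 11.3 to 168. H4c6 had 3 counts in WT PN3 and 61 in WT L2C, a ratio of 23.3 with an interval of 7.60 to 116. H3c8 and the H4 gene H4c8 rose by 1.75 ± 0.55 and 1.21 ± 0.38 in WT and by 1.89 ± 0.56 and 1.94 ± 0.39 in KO. The WT calls of H3c8 and H4c8 were lost without WT PN3 replicate 1 (edgeR adjusted p = 0.0579) and WT PN3 replicate 3 (edgeR adjusted p = 0.0561), respectively, and the KO call of H3c8 without KO L2C replicate 1 (edgeR adjusted p = 0.062). With the close L2C pairs summed, the WT call of H4c8 (0.062) and the KO call of H3c8 (0.0554) were lost too, and that of H4c8 also with no filter (0.0965). The abundant H4 genes H4c3, H4f16, H4c1 and H4c9 gave 0.13, 0.37, 0.34 and 1.12 on the log2 scale in WT without a call, and H4c3 was called in KO at 0.95 ± 0.37 (edgeR adjusted p = 0.0429). That call was lost without KO PN3 replicate 1 or 3 or KO L2C replicate 1 or 2, with adjusted p up to 0.121, and with the close pairs summed. H2bc11 was called in KO at 1.18 ± 0.47 (edgeR adjusted p = 0.0491), a call lost without 8 of the 12 libraries in turn, with adjusted p up to 0.14.

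In zygotes no histone member was called between KO and WT. At PN3, 0 of 49 members were called by edgeR, against 0.132% of all genes tested. An unadjusted edgeR p under 0.05 was found for 4 members, 2 higher and 2 lower. Over all genes it was found for 2144 of 21160, 1026 higher and 1118 lower. With the replicate number as a block within stages, 2 members were called, H2ax lower and H2bc4 higher, against 2.67% of all genes, and DESeq2 called the same 2 genes against 2.54%. Without the rRNA-rich libraries 5 were called (H1f8, H2az1 and H2bc4 higher, H2ax and Slbp lower) against 9.36%. H2ax was at 9.49, 15.5 and 10.2 CPM in WT and 4.22, 6.62 and 4.998 CPM in KO, groups that did not overlap. Its difference was -1.15 ± 0.30 (SE), with an edgeR adjusted p of 0.209, and 0.0317 with the replicate block. H2bc4 was at 17.1, 17.1 and 22.9 CPM in WT and 38.5, 27.3 and 37.5 CPM in KO, also without overlap. Its difference was 0.86 ± 0.28, with an edgeR adjusted p of 0.309, and 0.0498 with the block.

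At the 2-cell stage the called variants were lower in KO, and the called linker histones, H1f8 and H1f1, were higher. In KO against WT, 5 of 49 members were higher and 2 lower, against 7.24% of all genes higher and 9.74% lower. The members that rose in KO were H1f8, H1f1, H2bc1, the H3 gene H3c7 and the H2A gene Hist1h2al, and those that fell were H2ax and Cenpa. The replicate block within stages called 16 members, 9 higher and 7 lower and including all 7, against 32.2% of all genes. Leaving out the rRNA-rich libraries called 21 members against 45.2%, but this keeps only the close replicates 1 and 2 of each genotype at L2C, so its p-values measure the small spread between them. When the close replicates 1 and 2 of each L2C group were summed to 1 sample, no member was called, against 1.55% of all genes, and the adjusted p of the 7 members ranged from 0.0996 to 0.21. By median, the 9 replacement variants stood at -1.02 on the log2 scale with 0 of 9 above 0. They include H3f3c and H3f4, which were placed by symbol and whose counts are uncertain. The 29 core genes stood at 0.43 with 20 above 0. Over all genes the median was 0.02, with 10703 of 21160 above 0. The linker histones did not move as a group. The 4 replication-type linker genes tested had a median of -0.64 with 1 above 0, and the 3 replacement linker genes 0.79 with 3 above 0. Markers of the embryo's own stage moved as well: the 8 markers of the 2-cell embryo summed to 1317, 1323 and 706 CPM in WT L2C and 830, 836 and 294 CPM in KO L2C. All 8 were below 0 in KO against WT, with a median of -0.78 and 1 called. The 10 oocyte markers summed to 5996, 6099.7 and 4489 CPM in WT L2C and 9570.1, 9477 and 5601 CPM in KO L2C, with 7 of 10 above 0, 1 called higher and 1 lower. The part of both lists in the histone differences was not tested. The KO comparison at L2C and the stage comparison in WT share the WT L2C libraries, and that at L2C and the stage comparison in KO the KO L2C libraries.

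**Figure D5:**
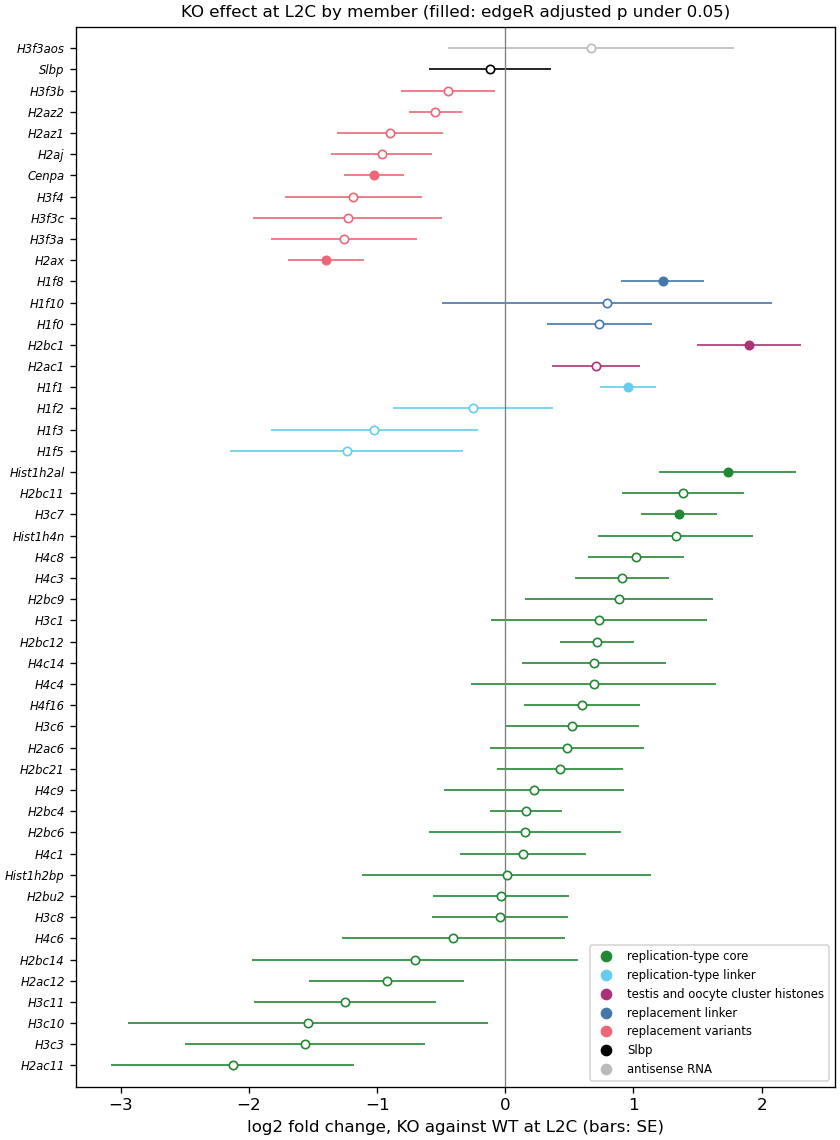
log2 fold change of KO against WT at L2C for the 49 tested members, with the standard error as bars, grouped by class; filled points are members with an edgeR adjusted p under 0.05. The 9 replacement variants all lie left of 0, from -0.45 for H3f3b to -1.40 for H2ax, and H2bc1 lies furthest right at 1.90. The variants include H3f3c and H3f4, which were placed by symbol and whose counts are uncertain.

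The members higher in KO at L2C included genes that fell between the stages in WT. H1f8 was 45.8, 48.9 and 50.5 CPM in WT and 124, 137 and 79.9 CPM in KO, with no overlap, a change of 1.23 ± 0.32 (SE, edgeR adjusted p = 0.0221). The call was lost without any 1 of the 3 WT L2C libraries or without KO L2C replicate 1 or 2, where the adjusted p reached 0.0901, and with total counts as the scaling. H1f1 rose by 0.96 ± 0.22 (edgeR adjusted p = 0.0118), a call that leaving out WT L2C replicate 2 removed (edgeR adjusted p = 0.0508). H2bc1 rose by 1.90 ± 0.41 (edgeR adjusted p = 0.0081) and its neighbour H2ac1 stood at 0.71 ± 0.34 (edgeR adjusted p = 0.175). For both genes all KO libraries lay above all WT libraries. Slbp also fell between stages, and its KO difference at L2C was -0.12 ± 0.47.

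H3c7 (chr13:23544052-23545312) was at 5.43, 8.14 and 7.96 CPM in WT L2C and 19.2, 19.9 and 15.99 CPM in KO L2C. The groups were well apart, and the change was 1.36 ± 0.29 (SE, edgeR adjusted p = 0.00862). Hist1h2al was at 1.44, 1.57 and 1.70 CPM in WT and 4.74, 4.42 and 6.57 CPM in KO, a change of 1.73 ± 0.53 (edgeR adjusted p = 0.0418) that was no longer called when any 1 of the 6 L2C libraries was left out, with adjusted p up to 0.128. H4c3 at 14.6, 15.8 and 12.6 CPM in WT and 30.5, 27.2 and 23.0 CPM in KO did not overlap either, and its 0.91 ± 0.36 had an edgeR adjusted p of 0.105, and 0.00736 with the replicate block. H2bc11 and H2bc12 stood at 1.39 ± 0.47 and 0.72 ± 0.29 (edgeR adjusted p = 0.0617 and 0.107), and at 0.00905 and 0.0233 with the block. H4c8 stood at 1.02 ± 0.37 (edgeR adjusted p = 0.0794), and H1f0 at 0.73 ± 0.41 (edgeR adjusted p = 0.244, and 0.00683 with the block). Of the 9 H4 genes, 8 were above 0, with a median of 0.69, beside 10703 of 21160 genes above 0. None of these H4 genes was called by edgeR. How reads shared between H4 genes were counted is not stated, so their values may not be independent.

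Among the variants, H2ax was at 50.4, 47.4 and 28.9 CPM in WT L2C and 15.9, 15.3 and 16.8 CPM in KO L2C. It fell by 1.40 ± 0.30 (SE, edgeR adjusted p = 0.0081), and no library of one genotype reached the other. Cenpa fell by 1.02 ± 0.23 (edgeR adjusted p = 0.0108) from 481 to 625 CPM in WT down to 205 to 324 CPM in KO. H2az1 gave -0.90 ± 0.41, H3f3a -1.26 ± 0.57, H2aj -0.96 ± 0.39, H2az2 -0.55 ± 0.21 and H3f3b -0.45 ± 0.36, with edgeR adjusted p of 0.153, 0.151, 0.109, 0.087 and 0.433. With the replicate block these 5 were called, at adjusted p of 0.000531, 0.000197, 0.00822, 0.0163 and 0.0187. H3f4 and H3f3c gave -1.18 ± 0.54 and -1.23 ± 0.74 (edgeR adjusted p = 0.15 and 0.278). In replicate 3 of KO L2C, which is rRNA-rich, H3f3a, H3f3b and H2az1 were the lowest of all L2C libraries. Without the rRNA-rich libraries, which leaves the close pairs alone at L2C, the H3f3a, H2az1 and H3f3b differences were -1.05, -0.71 and -0.22. With the close pairs summed they were -1.34, -0.96 and -0.53, with edgeR adjusted p of 0.385, 0.396 and 0.617.

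The KO effect was called as different between the stages for 2 of 49 members, H3c7 and H2bc1, against 4.94% of all genes. Both calls were lost with the close L2C pairs summed. Of the 12 fits that left out 1 library, the H3c7 call held in 7 and the H2bc1 call in 4. The effect at L2C less the effect at PN3 was 1.85 ± 0.41 (SE) for H3c7 (edgeR adjusted p = 0.0241) and 2.40 ± 0.55 for H2bc1 (edgeR adjusted p = 0.0291). For H3c7 the KO effect was -0.50 ± 0.29 at PN3 and for H2bc1 -0.51 ± 0.38, neither called (edgeR adjusted p = 0.61 and 0.738). H1f1 (1.15 ± 0.31) and Cenpa (-1.13 ± 0.33) had edgeR adjusted p of 0.0502 and 0.0662. The replicate block called 9 members against 17.8% of all genes, among them H1f1 and Cenpa at adjusted p of 0.00675 and 0.00172. H1f8 differed by 0.65 ± 0.45 between the stages (edgeR adjusted p = 0.443).

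Genes that process replication-type histone mRNA, on a list of 23, were all tested. At PN3 edgeR called 0 and 4 had an unadjusted p under 0.05: Coil (-1.21), Mif4gd (0.63), Upf1 (1.13) and Sympk (0.60), with adjusted p of 0.121 to 0.47. Over all genes, 2144 of 21160 had an unadjusted edgeR p under 0.05 at PN3. The block called 4 (Coil, Eri1, Mif4gd and Upf1) beside 2.67% of all genes, and DESeq2 2 (Coil and Mif4gd) beside 2.54%. At L2C 4 were higher and 5 lower in KO, beside 7.24% and 9.74% of all genes. Eri1, the exonuclease that trims the hairpin end of histone mRNA, was at 7.28, 6.75 and 4.19 CPM in WT and 39.9, 39.9 and 20.6 CPM in KO, a rise of 2.46 ± 0.42 (SE, edgeR adjusted p = 0.00248). Coil, the Cajal body scaffold, fell by 1.39 ± 0.27, Cdk2, the kinase that drives S phase, by 1.15 ± 0.21, and the cap-binding subunit Ncbp1 by 1.14 ± 0.30 (edgeR adjusted p = 0.00486, 0.00417 and 0.0204). With the close L2C pairs summed, none of the 23 was called.

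Of 33 histone chaperone and assembly genes, 2 were higher and 6 lower in KO at L2C, beside 7.24% and 9.74% of all genes. At PN3 edgeR called 0, and DESeq2 called Chaf1b. The 4 of lowest edgeR p were Chaf1b (-0.81), Atrx (0.43), Srcap (0.63) and Set (0.29). The first 2 of them were under an unadjusted p of 0.05, beside 2144 of 21160 genes. Mis18a, needed to load CENP-A at centromeres, was at 79.4, 75.6 and 60.5 CPM in WT and 26.6, 24.6 and 13.1 CPM in KO, a fall of 1.75 ± 0.26 (SE, edgeR adjusted p = 0.0013). It was the 1 chaperone gene still called with the close L2C pairs summed. Nasp, which holds H3 and H4 and also binds linker histones, fell by 0.72 ± 0.18 (edgeR adjusted p = 0.0188). Npm2, the egg nucleoplasmin, rose by 0.92 ± 0.25, and Atrx, part of an H3.3 deposition complex, by 0.70 ± 0.18 (edgeR adjusted p = 0.0248 and 0.0202). The block called 5 of the 33 higher and 15 lower at L2C, beside 32.2% of all genes called in either direction.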

How the data were processed

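Poly(A) RNA of 12 libraries was sequenced by Smart-seq2. The submitters' processing notes name mm10, DESeq2, featureCounts 2.0.2, STAR 2.7.10a and Trim Galore 0.6.7. The authors deposited raw counts per gene with exon length and coordinates; no source used here says how reads of similar genes or strands were counted. Library totals are in the report; 3 counts were used as the floor.

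edgeR 4.0.16 (R 4.3.3) tested the deposited counts: filterByExpr kept 21160 genes, TMM set the library scale, and all 12 libraries entered 1 quasi-likelihood fit (robust) with a term for each group. Calls had a Benjamini-Hochberg adjusted p under 0.05 over all genes tested; SE is the log2 fold change over the root of F. CPM uses the scaled library size, and CPM per kb the deposited length.

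The main fit did not use replicate numbers, so its p-values are unpaired. In the replicate block, an alternative, the numbers were treated as pairing WT and KO within a stage. Deviations from group means correlated above 0.1 in each same-numbered pair (0.165, 0.455 and 0.274 at PN3, 0.128, 0.15 and 0.221 at L2C). Replicates 1 and 3 at PN3 (0.211 and 0.205) and 1 and 2 at L2C (0.132 and 0.14) correlated about as well when crossed, so only the rRNA-rich libraries are matched by number in these values. Alternatives were DESeq2 1.42.0, other scalings and filters, the replicate block, only the groups compared, leaving out each library or the rRNA-rich ones, summing the close L2C pairs, and summing replication-type core and linker genes by histone type.

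Named were Slbp, all replacement and linker members, H2ac1 and H2bc1, core members by level (10 highest) and by lowest adjusted p (5 per direction), and up to 4 genes per other list. The members and lists were chosen with earlier results of these data known.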

Additional observations from a re-analysis of the deposited data

Results flagged for a closer look

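H3c7 and H2bc1 are given here because the KO effect differed between the stages by a test of that difference, taken as L2C less PN3. For H3c7, a replication-type H3 gene, the difference was 1.8538 on the log2 scale (edgeR adjusted p = 0.0241). For H2bc1, the gene of TH2B, it was 2.4042 (edgeR adjusted p = 0.0291). Both calls were lost when the close L2C pairs were summed (edgeR adjusted p = 0.156 and 0.169). The H3c7 call was also lost without KO PN3 replicate 1, WT L2C replicate 1 or 2, or KO L2C replicate 1 or 2, with adjusted p up to 0.069. The H2bc1 call was also lost without WT PN3 replicate 1, KO PN3 replicate 1 or 3, any WT L2C replicate, or KO L2C replicate 1 or 2, with adjusted p up to 0.0799. Neither changed sign in any setting that was run.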

How the results depend on the processing

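Counts of called members moved by more than 1.5 times in these cases. For KO against WT at PN3 (0 members), the replicate block gave 2, leaving out the rRNA-rich libraries 5 and DESeq2 2; leaving out single libraries gave 0 to 0. At L2C (7), the block gave 16, leaving out the rRNA-rich libraries 21, summing the close pairs 0, summing replication-type genes by type 4, and leaving out single libraries 4 to 10. For the stage change, the filter at 10 CPM gave 13 and summing by type 12 in WT (23), with 19 to 25 over single libraries left out. In KO (21), leaving out the rRNA-rich libraries gave 32 and summing by type 13, with 18 to 23 over single libraries. For the interaction (2), the block gave 9, leaving out the rRNA-rich libraries 12, summing the close pairs 0, summing by type 1, DESeq2 4, and leaving out single libraries 0 to 4. The causes were not tested; summing by type and the stricter filter leave fewer members to test.

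Without composition scaling, the summed level of the replication-type core at L2C was 110 CPM (WT) and 174 CPM (KO), that of the replication-type linkers 48.8 CPM in KO PN3, 23.5 CPM in WT L2C and, in KO L2C, 34.9 CPM, that of the replacement linkers 180 CPM in KO L2C, and that of the testis and oocyte genes 24.3 CPM (WT) and 18.5 CPM (KO) at PN3. Among the single-gene values counted here, changes of sign were found for uncalled values of KO against WT at L2C in 2 genes. The uncalled stage changes of H3f3a and H3f3b were not among the values counted, so their direction is not shown to be stable. H1f10 (0.79) turned to -0.56 without the rRNA-rich libraries and ranged from -1.07 to 1.32 over single libraries left out. For Slbp, KO vs WT at L2C, the value (-0.12) turned to 0.0877 with upper quartile scaling, 0.019 with the filter at 10 CPM and 0.0218 without the rRNA-rich libraries, and ranged from -0.22 to 0.0759 over single libraries left out. Of the other single-gene values, 86 lost and 69 gained a call and 1587 kept both direction and side of the threshold. The block changed calls as given beside the results. No blocked fit of the stage comparisons was made, since the block is nested in the stage, and the interaction already uses all groups. At L2C, leaving out the rRNA-rich libraries keeps only the close pairs.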
